A study of Mus musculus with 6 samples.

Results

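The 10 genes described here are mouse genes of mitochondrial fatty acid oxidation and of the response to the peroxisome proliferator-activated receptors (PPARs), namely Cpt1a, Cpt2, Acadl, Acadm, Acadvl, Hadha, Hadhb, Pdk4, Plin2 and Ucp2. They were taken by name from a count table of 55487 gene identifiers, with earlier results of these data known. All 10 were among the 19015 genes with enough counts to be tested. The cells came from the skin of C57BL/6 mice aged 2 to 3 months, with 4 to 6 mice used for an isolation, and were enriched with magnetic beads against CD31, an endothelial surface protein. The labels give the cell type as endothelial cell (EC). For 48 hours, 3 cultures were kept at 5 mmol/L glucose (normal glucose) and 3 at 20 mmol/L glucose (high glucose, a condition used to model the hyperglycemia of diabetes), and polyA RNA of each was sequenced in bulk. The study describes its replicates as mice, whereas the labels describe pooled mice and do not tie replicates to isolations, so p values measure the spread between these cultures, which may be technical. The 6 samples hold no osmotic control.

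In high glucose, Pdk4 mRNA rose by 45.4% (95% confidence interval 30.0% to 62.6%) and Cpt2 mRNA rose by 22.1% (13.4% to 31.4%), whereas Plin2 mRNA decreased by 31.5% (26.0% to 36.7%). The remaining 7 genes did not pass the test, and their estimates lay between −0.089 and 0.12 on the log2 scale. Thus 1 of the 10 genes was called lower and 2 were called higher by the quasi-likelihood test of edgeR at a Benjamini-Hochberg adjusted p under 0.05. Among all tested genes, 14.5% were called lower, 16.9% higher and 31.4% in either direction, so the share of called genes among the 10 was close to the background. The median log2 fold change (high minus normal glucose) of the 10 genes was 0.0083, beside 0.0062 over all tested genes. The values of the normal and high glucose cultures did not overlap for 4 of the 10 genes, and did not overlap for 46.4% of all tested genes. With 3 cultures against 3, a two-sided exact permutation test of a single gene cannot go below p = 0.1. Cpt2, Hadhb, Pdk4 and Plin2 reached that value.

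Fatty acids are burned in the mitochondrial matrix. Long-chain acyl groups are handed to carnitine at the outer membrane by enzymes such as CPT1A. The acyl groups are carried across the inner membrane by Slc25a20 and handed back to coenzyme A by CPT2. Each round of beta-oxidation then shortens the chain through a dehydrogenase, a hydratase, a hydroxyacyl dehydrogenase and a thiolase. PPARs are nuclear receptors for fatty acids and their derivatives that pair with retinoid X receptors, and genes such as Pdk4, Plin2, Cpt1a and Angptl4 are widely used as readouts of their activity. ECs are known to take much of their ATP from glycolysis, while also using fatty acid oxidation.

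The libraries held between 120192466 and 146881356 counts. Levels are given in CPM, counts scaled to a common library total, and 3 counts equalled 0.0211 to 0.0258 CPM depending on the library, a limit that covers counting error only. All CPM values below were normalized by the TMM method (trimmed mean of M values), with factors of 1.03 to 1.05 for the normal glucose libraries and 0.954 to 0.966 for those of high glucose. Of 11 endothelial markers, Tie1, Emcn and Cldn5 had too few counts to be tested, Pecam1, which encodes CD31, averaged 0.128 CPM at the lower and 0.103 CPM at the higher glucose level, and the summed level of the list was 19.7 to 20.8 CPM against 18.7 to 19.2 CPM. The summed level of 10 fibroblast markers was 38759 to 41992 CPM in normal glucose and 70415 to 75317 CPM in high glucose, with 7 called higher and 2 lower. Of the endothelial markers, 2 were called higher (Tek and Erg) and 2 lower (Cdh5 and Egfl7). The labelled cell type was therefore not borne out by its defining markers. Of 10 adipocyte markers, which include PPARγ-responsive genes, 9 were tested and 7 called higher (433 to 497 CPM against 555 to 593 CPM), Adipoq at a log2 fold change of 0.67, while Lep was too low to be tested. Of 10 macrophage markers 5 could be tested, with 3 called lower (Csf1r, Cd68 and Mrc1), 1 higher (Cd14) and a median log2 fold change of −0.46, and C1qb had 0 counts. The Cd68 call was lost without replicate 2 or 3 of either group (adjusted p = 0.0867 to 0.150). Their summed level, 17.4 to 19.6 CPM against 26.9 to 27.8 CPM, followed Cd14 (9.47 ± 0.555 and 21.1 ± 0.0449 CPM). The lists for keratinocytes (4.20 to 5.09 CPM against 4.60 to 4.88 CPM, 1 called higher), mural cells (399 to 431 against 336 to 352, 1 higher and 4 lower) and skeletal muscle (4.82 to 6.14 against 1.66 to 1.83, 2 lower, with Myod1, Myf5 and Myog at 0 counts) were also far below the fibroblast list. In bulk RNA, a different number of cells of a type and a different amount of RNA per cell cannot be told apart, and the part of these lists in the results below was not tested.

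**Figure D1:**
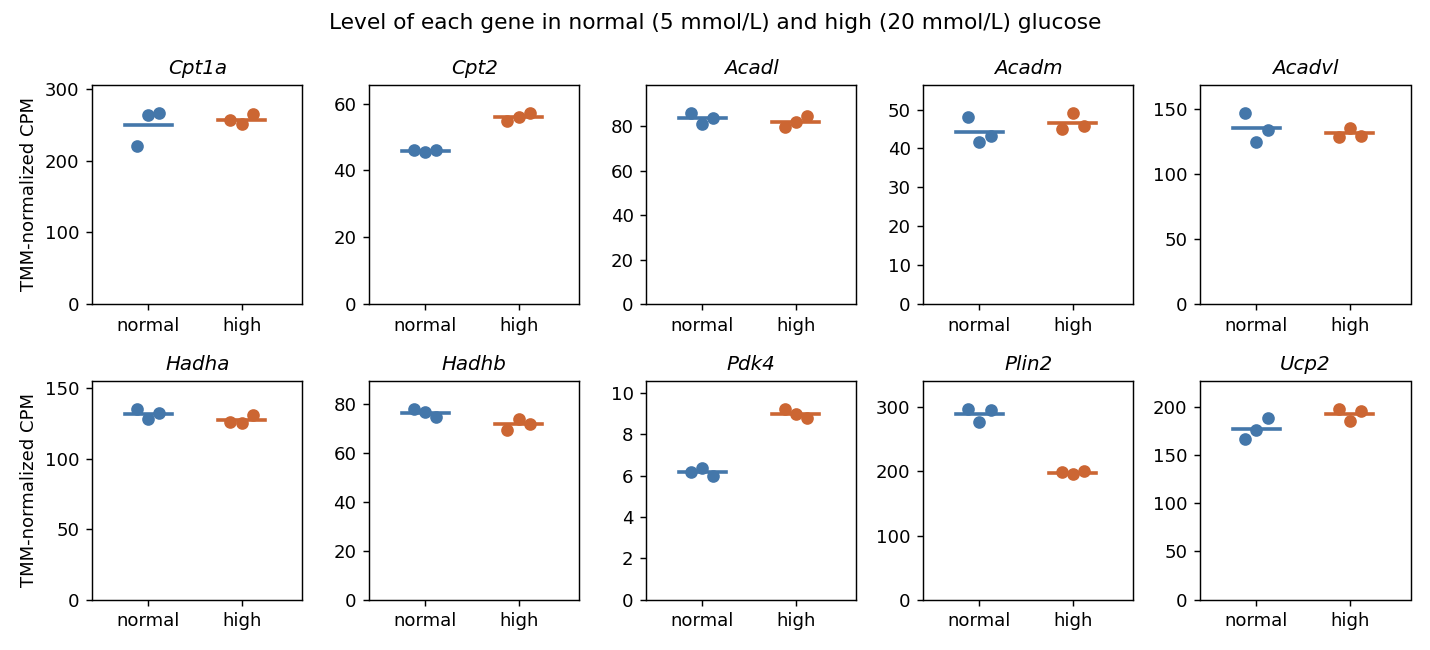
Level of each of the 10 genes in TMM-normalized CPM (vertical axes from 0, scaled for each gene), with 1 point per culture and a horizontal line at the mean of 3 cultures, in normal (blue) and high (orange) glucose. The groups stand apart for Cpt2, Pdk4 and Plin2, and by a narrow gap for Hadhb.

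The carnitine shuttle holds the entry step, Cpt1a, and the matrix step, Cpt2, and only the latter passed the test. Cpt2 (ENSMUSG00000028607, GRCm38 chromosome 4, 107903981 to 107923610, minus strand) encodes carnitine palmitoyltransferase 2, the inner membrane enzyme that regenerates acyl-CoA. Its level was 46.0, 45.5 and 46.0 CPM in normal glucose. In high glucose it was 54.8, 55.9 and 57.0 CPM. Every high glucose culture was above every normal glucose culture, and both groups were tight. The means were 45.8 ± 0.278 and 55.9 ± 1.10 CPM (SD, n = 3), so the log2 fold change was 0.29 (SE 0.048, adjusted p = 0.00116, edgeR). The increase was modest, as 82.5% of all tested genes had a lower log2 fold change.

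Cpt1a (ENSMUSG00000024900, chromosome 19, 3322334 to 3385733, plus strand) encodes the liver-type carnitine palmitoyltransferase 1, the malonyl-CoA-sensitive gate of the pathway. It stood at 220.0, 263.6 and 265.6 CPM in normal glucose. The high glucose cultures had 256.0, 251.1 and 264.3 CPM, all inside the range of the normal glucose cultures. The spread came mainly from replicate 1 of normal glucose, the lowest of the 6 values. The log2 fold change was 0.042 (95% confidence interval −0.12 to 0.20, adjusted p = 0.702), and without that culture it was −0.059. Per kilobase of the principal transcript, Cpt1a made up 63.1% ± 2.90 of the summed level of the 3 Cpt1 genes in normal glucose, against 67.2% ± 0.757 at the higher level (SD, n = 3). Those shares did not overlap (exact permutation p = 0.1, two-sided, the smallest possible).

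Also measured were the acylcarnitine carrier Slc25a20 and the other genes of the Cpt1 family, the muscle-type Cpt1b and the brain-type Cpt1c. Cpt1c is given as a family member, and a part of it in the shuttle was not tested. Cpt1c fell from 91.9 ± 2.79 to 79.8 ± 4.13 CPM (log2 fold change −0.20, adjusted p = 0.0194), and Slc25a20 fell from 34.7 ± 1.16 to 30.1 ± 0.243 CPM (−0.20, adjusted p = 0.0114). Hence the carrier and CPT2, which act in succession, had estimates of opposite sign. Cpt1b had a low level of 2.07 ± 0.324 and 1.46 ± 0.428 CPM (−0.51, 95% confidence interval −0.96 to −0.050, adjusted p = 0.0863). The Cpt1c call was lost without replicate 3 of normal glucose (adjusted p = 0.0590) or replicate 2 of high glucose (adjusted p = 0.0631), and without the latter Cpt1b passed at −0.72 (adjusted p = 0.0355). Of 9 genes for malonyl-CoA, the inhibitor of CPT1, and its AMPK control, 2 were called higher and 1 lower, with a median log2 fold change of 0.076. Acaca, a carboxylase that makes malonyl-CoA, rose (0.44, adjusted p = 0.00334), with a lowest estimate of 0.19 over the alternative settings. Acacb, the other such carboxylase, had 9.72 ± 0.384 and 10.0 ± 0.978 CPM and did not pass (0.048, adjusted p = 0.711). The AMPK subunit Prkag2 rose (0.31, adjusted p = 0.00169), whereas the subunit Prkag1 fell (−0.17, adjusted p = 0.0221). The Prkag1 call was lost without replicate 1 (adjusted p = 0.0764) or replicate 2 (adjusted p = 0.0532) of high glucose.

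None of the 3 acyl-CoA dehydrogenases passed the test. They catalyze the opening step of each round and differ in chain length, with Acadvl for very long, Acadl for long and Acadm for medium chains. Acadvl (ENSMUSG00000018574, chromosome 11, 70010183 to 70015411, minus strand) had 146.8, 125.1 and 134.0 CPM in normal glucose. It had 128.7, 135.6 and 129.8 CPM in high glucose. The high glucose values lay inside the range of normal glucose, and the log2 fold change was −0.042 (95% confidence interval −0.18 to 0.10, adjusted p = 0.660), or 0.0024 without replicate 1 of normal glucose. Acadl (ENSMUSG00000026003, chromosome 1, 66830839 to 66863277, minus strand) had 85.8, 81.1 and 84.0 CPM in normal glucose. It had 79.9, 82.1 and 84.5 CPM in high glucose. The Acadl groups also overlapped, with a log2 fold change of −0.026 (−0.14 to 0.087, adjusted p = 0.740). Acadm (ENSMUSG00000062908, chromosome 3, 153922357 to 153944632, minus strand) had 48.0, 41.6 and 43.3 CPM in normal glucose. It had 45.1, 49.0 and 45.8 CPM in high glucose. The highest culture of normal glucose lay within the range of high glucose, and the log2 fold change was 0.074 (−0.070 to 0.22, adjusted p = 0.421). For all 3 genes the intervals exclude a change as large as that of Cpt2 at its estimate.

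Hadha and Hadhb encode the alpha and beta subunits of the mitochondrial trifunctional protein, which carries out the later steps for long chains. The genes lie head to head on chromosome 5, Hadha (ENSMUSG00000025745, 30118304 to 30155162) on the minus strand and Hadhb (ENSMUSG00000059447, 30155248 to 30184593) on the plus strand. Their RefSeq start sites have 272 bases between them. Hadha stood at 135.1, 128.3 and 132.5 CPM in normal glucose and at 126.0, 125.6 and 131.1 CPM in high glucose. The groups overlapped, with a log2 fold change of −0.048 (95% confidence interval −0.16 to 0.062, adjusted p = 0.500). Hadhb stood at 77.9, 76.5 and 74.8 CPM in normal glucose and at 69.6, 74.0 and 71.9 CPM in high glucose. Here every high glucose culture was below every normal glucose culture, yet the gap was small and the gene was not called (−0.089, −0.20 to 0.022, adjusted p = 0.204). The ratio of Hadha to Hadhb, each per kilobase, was 0.881 ± 0.0246 in the normal and 0.907 ± 0.0355 in the high glucose cultures (SD, n = 3, exact permutation p = 0.3). That ratio rests on the length of the principal transcript. Per kilobase of all merged exons the order was reversed, with Hadha at 15.1 and Hadhb at 11.6 CPM in normal glucose. The summed level of the 7 oxidation genes, Cpt2 included, was 767 ± 11.3 CPM in normal glucose and 773 ± 12.1 CPM in high glucose (exact permutation p = 0.6), with overlapping values.

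**Figure D2:**
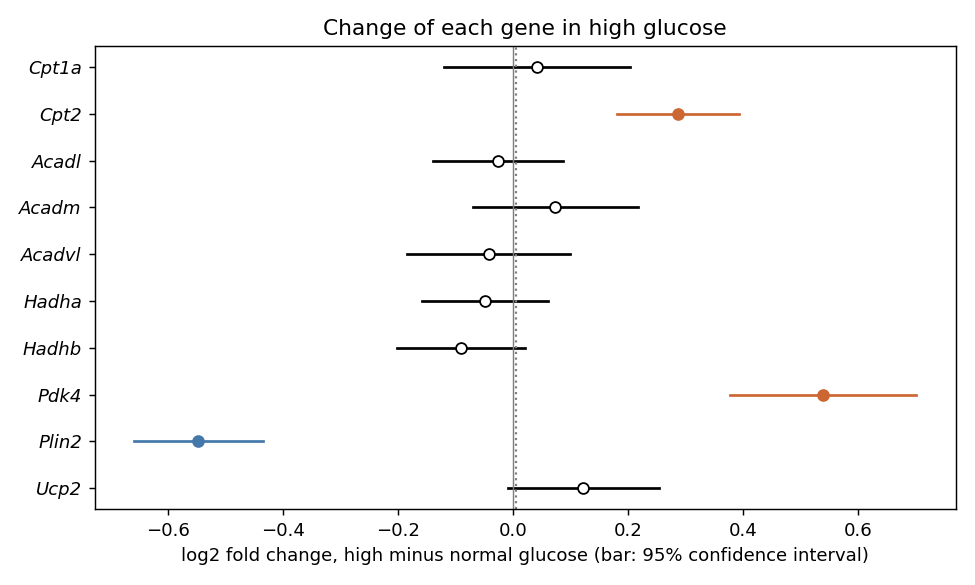
Log2 fold change of each gene, high minus normal glucose, from edgeR with its 95% confidence interval, filled orange where called higher, filled blue where called lower and open where not called; the dotted line marks the median of all tested genes, 0.0062. The intervals of the dehydrogenases, Hadha, Hadhb, Cpt1a and Ucp2 include 0.

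Beyond the 7 oxidation genes, 21 other genes listed under mitochondrial beta-oxidation, Cpt1c included, were tested. Of the 21, 3 were called higher, 2 lower and 16 neither. Their median log2 fold change was −0.0025. The genes called higher were Acad12 (0.43, adjusted p = 4.3e-04) and Acad9 (0.31, adjusted p = 0.00109), both of the dehydrogenase family, and the thiolase Acat1 (0.16, adjusted p = 0.0426). The genes called lower were Slc25a20 and Cpt1c, described above. Hadh, the hydroxyacyl dehydrogenase for medium and short chains, had 45.4 ± 1.16 and 45.9 ± 0.554 CPM (0.018, 95% confidence interval −0.090 to 0.13, adjusted p = 0.813). The Acat1 call was lost when any culture except replicate 1 of normal glucose was left out (adjusted p = 0.0855 to 0.194). Without replicate 3 of normal glucose, 1 of the 21 genes was called lower. Scaling to library size alone, which puts the median of all tested genes at −0.11, gave 8 lower and 2 higher.

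Some of the reads behind these values cannot be assigned with certainty, because no source says that the counting used the strand of the reads. The exons of Acadvl share 1151 bases with Dvl2 on the opposite strand, whose counts were 32.3% to 41.9% of those of Acadvl and whose log2 fold change was 0.052. Hadha shares 75 exonic bases with Garem2 on the opposite strand (7.61% to 10.3% of the counts of Hadha, log2 fold change 0.21). Ucp2 shares 305 bases with Dnajb13, whose counts were at most 0.158% of those of Ucp2. Hadhb has a processed pseudogene, Gm13910, with 99.8% identity over 1428 bases and 2.33% to 2.58% of its counts. The copies Gm9108 of Hadhb and Gm5131 of Acadm held at most 0.163% and 0.438%. Acadvl, Hadha and Hadhb, none of them called, are thus the less certain members, and no such overlap or copy was found for Cpt2, Pdk4 or Plin2.

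Pdk4 had the largest relative increase of the 10 genes and the lowest level. Pdk4 (ENSMUSG00000019577, chromosome 6, 5483351 to 5496309, minus strand) encodes pyruvate dehydrogenase kinase 4, which inactivates the pyruvate dehydrogenase complex and so limits the entry of glucose carbon into the citric acid cycle. It had 774, 904 and 768 counts in normal glucose, or 6.18, 6.37 and 6.00 CPM. In high glucose it had 1307, 1042 and 1186 counts, or 9.21, 8.96 and 8.80 CPM. The lowest high glucose culture was well above the highest normal glucose culture. The means were 6.18 ± 0.187 and 8.99 ± 0.209 CPM (SD, n = 3), so the log2 fold change was 0.54 (SE 0.073, adjusted p = 3.0e-04). Of all tested genes, 92.7% had a lower log2 fold change.

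Of the other pyruvate dehydrogenase kinases, 1 rose, 1 fell and 1 did not pass the test. Pdk1, a target of the hypoxia-inducible factors, fell from 99.3 ± 3.65 to 74.7 ± 2.28 CPM (−0.41, adjusted p = 2.1e-04), whereas Pdk2 rose from 23.5 ± 1.39 to 29.8 ± 0.541 CPM (0.34, adjusted p = 0.00132). Pdk3 had 63.2 ± 1.42 and 56.8 ± 2.67 CPM (−0.15, 95% confidence interval −0.27 to −0.035, adjusted p = 0.0519). That value was near the threshold, and it passed under 8 of 21 alternative settings, among them without replicate 1 of normal glucose (−0.19, adjusted p = 0.0160) and without replicate 2 of high glucose (−0.21, adjusted p = 0.0317). Per kilobase, Pdk4 made up 2.97%, 2.90% and 2.82% of the summed kinase level in normal glucose, against 4.72%, 4.36% and 4.48% in high glucose. Pdk3 stayed the most abundant kinase at 48.8% ± 0.179 and 47.0% ± 0.848, the share of Pdk1 went from 31.2% ± 0.760 to 25.2% ± 0.180, and that of Pdk2 from 17.1% ± 0.836 to 23.2% ± 0.819 (SD, n = 3). The groups did not overlap for any of the 4 shares (exact permutation p = 0.1 each). Thus Pdk4 was a small part of the kinase mRNA in both conditions. Of 13 other genes for the complex, its kinases and phosphatases and the pyruvate carriers, with Pdk4 left out, 3 were called higher and 1 lower, with a median log2 fold change of 0.012. The number lower was 4 with library size scaling and 2 in DESeq2, with RLE or upper quartile normalization, and without replicate 1 of normal or replicate 2 of high glucose. The other genes called higher were Pdp1, the phosphatase that reverses the action of the kinases (0.62, adjusted p = 3.2e-05), and Pdpr, a regulatory subunit of that phosphatase (0.59, adjusted p = 0.0134), the latter with a wide spread in normal glucose (24.9 ± 6.47 CPM) and not called under edgeR's robust fit (adjusted p = 0.0633) or without a filter on low counts (adjusted p = 0.0505).

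**Figure D3:**
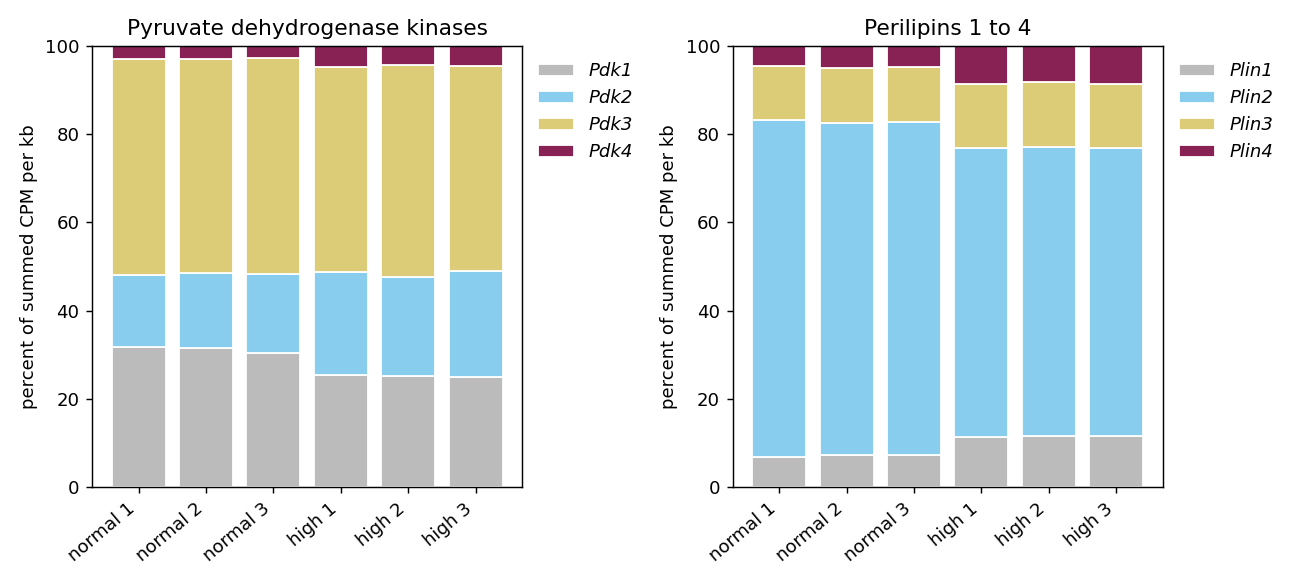
Share of each pyruvate dehydrogenase kinase (left) and of perilipins 1 to 4 (right) in the summed CPM per kilobase of its family, as stacked percentages for each of the 6 cultures. Pdk4 is a thin band that widens from 2.90% to 4.52% on average, and Plin2 narrows from 75.8% to 65.4%.

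Plin2 was the only one of the 10 genes called lower and the most abundant per kilobase. Plin2 (ENSMUSG00000028494, chromosome 4, 86648386 to 86670060, minus strand) encodes perilipin 2, the coat protein found on lipid droplets of most non-adipose cells. In normal glucose it had 296.9, 276.6 and 295.2 CPM. In high glucose it had 199.2, 195.6 and 199.8 CPM. The groups were far apart, and the high glucose cultures lay close together. The means were 289.5 ± 11.2 and 198.2 ± 2.30 CPM (SD, n = 3), so the log2 fold change was −0.55 (SE 0.051, adjusted p = 2.3e-05). Only 9.83% of all tested genes had a lower log2 fold change.

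Its relatives moved the other way or did not pass. Plin1, the perilipin of adipocytes, rose from 40.3 ± 1.60 to 52.1 ± 0.397 CPM (0.37, adjusted p = 3.5e-04), and Plin4 rose from 55.8 ± 2.50 to 78.4 ± 2.62 CPM (0.49, adjusted p = 8.3e-05). Plin3 had 91.4 ± 3.48 and 85.6 ± 0.538 CPM (−0.094, 95% confidence interval −0.21 to 0.018, adjusted p = 0.186), and passed with GC and length trends removed (−0.15, adjusted p = 0.0159). The share of Plin2 in perilipins 1 to 4, per kilobase, was 76.4%, 75.4% and 75.5% in normal glucose, against 65.4%, 65.3% and 65.4% in high glucose. Correspondingly, the share of Plin1 went from 7.06% ± 0.273 to 11.5% ± 0.172 and that of Plin4 from 4.80% ± 0.297 to 8.48% ± 0.199 (SD, n = 3). These shares are relative, so that of Plin3 was also higher (12.4% ± 0.0444 and 14.6% ± 0.0793). Each of these shares separated the groups (exact permutation p = 0.1).

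Among 17 tested genes for lipid droplet coats, triglyceride synthesis and lipolysis, 9 were called higher and 1 lower at a median log2 fold change of 0.25, against 6 higher and 4 lower when libraries were scaled to their size alone. Dgat2, an enzyme of the last step of triglyceride synthesis, rose (0.58, adjusted p = 1.9e-05), as did the lipases Pnpla3 (0.46, adjusted p = 0.0239), Pnpla2 (0.32, adjusted p = 0.00121) and Lipe (0.46, adjusted p = 1.7e-04) and the lipase activator Abhd5 (0.44, adjusted p = 1.1e-04). The gene called lower was Bscl2 (−0.23), which encodes seipin. Plin1, Lipe and Cidec, all called higher, are also among the adipocyte markers above. The Pnpla3 call was lost without replicate 3 of normal glucose (adjusted p = 0.0643), replicate 1 (adjusted p = 0.0954) or replicate 3 (adjusted p = 0.0865) of high glucose, and that of Bscl2 without replicate 3 of normal glucose or any culture of high glucose (adjusted p = 0.0729 to 0.0952). The Cidec call was lost when any culture except replicate 1 of normal glucose was left out (adjusted p = 0.0637 to 0.128). Plin2 thus changed in the direction opposite to 9 of the 10 called genes of this list.

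Ucp2 (ENSMUSG00000033685, chromosome 7, 100493337 to 100502020, plus strand) encodes a mitochondrial carrier named for its likeness to the uncoupling protein of brown fat. It had 166.4, 176.2 and 188.8 CPM in normal glucose. It had 197.5, 185.4 and 195.5 CPM in high glucose, and 1 of these values fell among those of normal glucose. The difference was 8.86% (95% confidence interval −0.634% to 19.3%), a log2 fold change of 0.12 (SE 0.059, adjusted p = 0.145). Ucp1 and Ucp3 had at most 14 and 7 counts in any library and were not tested. Of the remaining 3 related carriers, Slc25a27 rose from a low level of 1.97 ± 0.289 to 3.32 ± 0.565 CPM (0.76, adjusted p = 0.00352), and Slc25a14 fell from 5.76 ± 0.354 to 4.66 ± 0.131 CPM (−0.31, adjusted p = 0.0193). The Slc25a14 call was lost without replicate 1 (adjusted p = 0.0671) or replicate 3 (adjusted p = 0.0641) of high glucose.

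The mRNAs of the PPARs themselves did not pass the test. Ppara had 2.13 ± 0.716 and 2.63 ± 0.252 CPM (0.30, 95% confidence interval −0.18 to 0.78, adjusted p = 0.321), Ppard 107 ± 9.03 and 112 ± 2.69 CPM (0.070, −0.075 to 0.21, adjusted p = 0.452), and Pparg 33.3 ± 0.657 and 34.3 ± 1.81 CPM (0.044, −0.080 to 0.17, adjusted p = 0.587). Per kilobase, Ppard was the most abundant of the 3 in normal glucose at 32.6 CPM per kilobase, followed by Pparg at 18.8 and Ppara at 0.623. Without replicate 1 of normal glucose the estimate for Ppard was −0.0091, and without replicate 3 of high glucose that for Pparg was −0.0024. Of 16 receptors, partners and cofactors, 8 were called higher at a median log2 fold change of 0.31, and 6 with library size scaling. The edgeR test called 0 of the 16 lower, with 0 lower also at an unadjusted p under 0.05 and in DESeq2. Among those called higher were Nrip1, a corepressor also known as RIP140 (0.72, adjusted p = 1.8e-05), and the corepressor Ncor1 (0.45). The coactivators Ncoa1 (0.50, adjusted p = 7.6e-04) and Ncoa2 (0.48, adjusted p = 0.00464) were also called higher. The size of these changes depended on the processing, with lowest estimates over the alternative settings of 0.33 for Ncoa1, 0.29 for Ncoa2 and 0.22 for Ncor1. Ncor1 had 105.8, 138.5 and 130.7 CPM in normal glucose, with replicate 1 the lowest. Without replicate 1 or replicate 3 of high glucose, 5 of the 16 were called higher. Activators and repressors were thus among the same calls, and the retinoid X receptors Rxra (0.31, adjusted p = 0.00601) and Rxrb (0.22, adjusted p = 0.00859) rose with them. Rxrb was lost without replicate 1 (adjusted p = 0.0760) or replicate 3 (adjusted p = 0.0642) of high glucose.

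Other PPAR-responsive genes did not move as one group. Of 24 tested, 8 were called higher, 4 lower and 12 neither, with a median log2 fold change of −0.0033, against 6 higher and 8 lower with library size scaling. Angptl4, a secreted inhibitor of lipoprotein lipase, had the largest increase of the list. It had 182.9, 199.5 and 203.0 CPM in normal glucose against 390.2, 385.8 and 410.6 CPM in high glucose, which is a log2 fold change of 1.02 (SE 0.058, adjusted p = 7.5e-07). Plin4 and Acsl1, a long-chain acyl-CoA synthetase (0.48, adjusted p = 1.3e-04), rose as well. The genes called lower were Cyp4a10 (0.323 ± 0.0517 and 0.152 ± 0.0651 CPM, −1.07), Fgf21 (0.417 ± 0.0585 and 0.230 ± 0.0582 CPM, −0.85), the fatty acid translocase Cd36 (−0.32, adjusted p = 0.00785) and Slc25a20. Without replicate 2 of high glucose, 2 were called lower. Cyp4a10 and Fgf21 were lost without that culture (adjusted p = 0.0803 and 0.0698) or without replicate 2 of normal glucose (0.0747 and 0.0532), Cyp4a10 also without replicate 3 (0.0934) and Fgf21 without replicate 1 (0.0800) of high glucose. Plin2 and Angptl4, both induced by PPAR ligands in many cells, therefore had called changes of opposite sign in the same cultures.

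The supply of fatty acids showed the same mixture. Of 15 tested genes for uptake and activation, 4 were called higher and 5 lower, with a median log2 fold change of −0.0020. Lpl, the secreted lipase that frees fatty acids from lipoproteins, rose from 4213 ± 131 to 6476 ± 233 CPM (0.62, adjusted p = 1.2e-05). Gpihbp1, which anchors that lipase on capillary endothelium, had 0 counts in all 6 libraries. The acyl-CoA synthetase Slc27a3 fell from 62.9 ± 2.85 to 31.3 ± 1.61 CPM (−1.01, adjusted p = 9.2e-07). The other genes called lower were Fabp3 (−1.14), Slc27a1 (−0.38), Acsl6 (−0.38) and Cd36. Of these, Fabp3 had a low level of 1.01 ± 0.104 and 0.459 ± 0.0597 CPM. The others called higher were Acsl1, Acsf2 (0.38) and Acsl3 (0.24). The Acsl3 call was lost without replicate 2 (adjusted p = 0.0530) or replicate 3 (adjusted p = 0.0624) of high glucose.

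For peroxisomal beta-oxidation, which handles very long and branched chains, 5 of 16 tested genes were called higher and 1 lower, at a median log2 fold change of 0.10. With library size scaling 2 were higher and 4 lower. Scp2, which encodes a thiolase and a sterol carrier (0.35, adjusted p = 0.00110), and Pex11a, a factor of peroxisome division (0.31, adjusted p = 0.00218), were the largest increases. Hsd17b4 (0.18) and Acox3 (0.23) were also called higher. Both were lost without replicate 1 (adjusted p = 0.0774 and 0.0792) or replicate 3 (0.109 and 0.0777) of high glucose, Hsd17b4 also without replicate 2 of high glucose (0.0827) and Acox3 without replicate 3 of normal glucose (0.0565). The racemase Amacr fell (−0.26, adjusted p = 0.0209), but not without replicate 3 of normal glucose (adjusted p = 0.0687), replicate 1 (adjusted p = 0.0538) or replicate 3 (adjusted p = 0.0693) of high glucose. The number called higher was 2 without replicate 1 or replicate 3 of high glucose and 3 without replicate 2. Acox2 had 0 counts in every library.

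**Figure D4:**
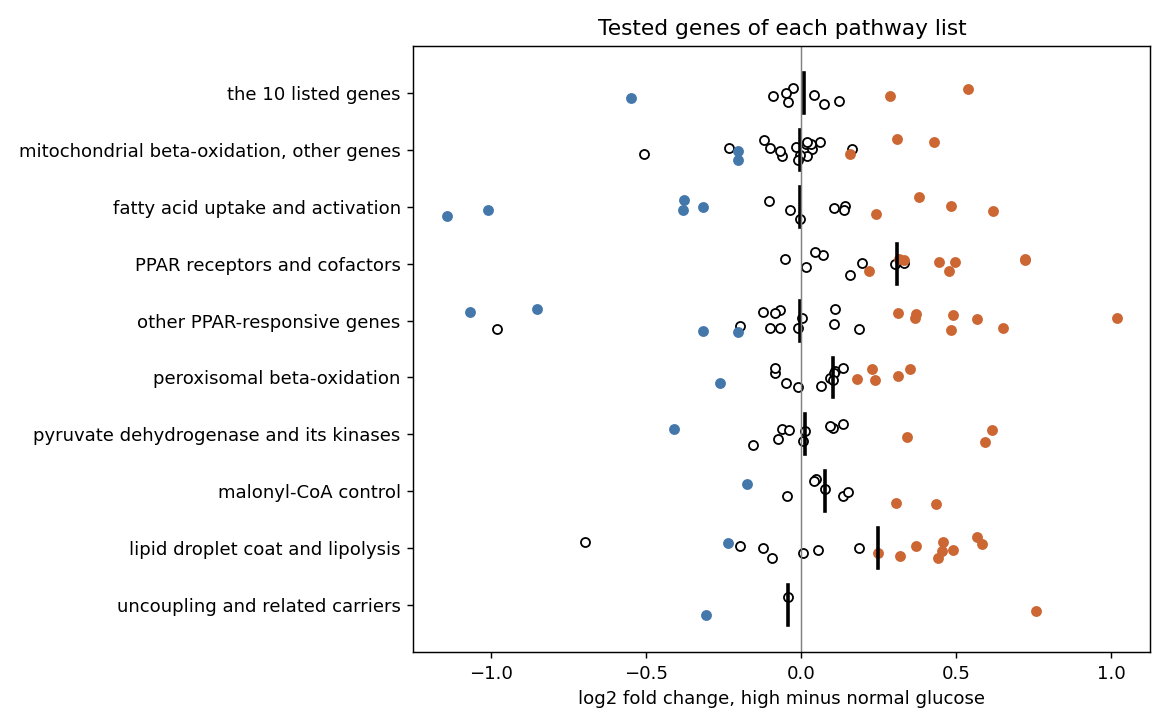
Log2 fold change, high minus normal glucose, of every tested gene in the 10 described genes and in 9 pathway lists, 1 point per gene, filled orange where called higher, filled blue where called lower and open where not called, with a black bar at the median of each list. Some genes stand in more than 1 list; the medians lie near 0 except for PPAR receptors and cofactors (0.31), lipid droplet genes (0.25) and peroxisomal genes (0.10).

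Levels were compared between genes per kilobase of the principal transcript. In normal glucose, Plin2 led with 153 ± 5.96 CPM per kilobase, followed by Acadvl (62.4 ± 5.04) and Cpt1a (57.8 ± 5.97), whose values overlapped. Ucp2 (44.4 ± 2.82) and Acadl (43.7 ± 1.25) also overlapped. Hadhb (37.3 ± 0.757), Hadha (32.8 ± 0.856), Acadm (21.6 ± 1.61), Cpt2 (19.3 ± 0.117) and Pdk4 (1.78 ± 0.0538) followed, each apart from its neighbours. In high glucose, Plin2 was still the most abundant at 105 ± 1.22 CPM per kilobase and Pdk4 the least at 2.58 ± 0.0599, whereas Cpt2 (23.6 ± 0.464) and Acadm (22.8 ± 1.02) overlapped. The order of the middle genes depends on the length used. Over all merged exons, Acadl stood before Cpt1a, Cpt2 before Hadha, and Hadha before Hadhb.

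The genes whose pattern over the 6 cultures was nearest to that of Plin2 were searched among 12442 genes by the root mean square difference of mean-centred log2 CPM. They were Cd9, which encodes a tetraspanin (difference 0.0232, log2 fold change −0.52), Anxa5, which encodes the phospholipid-binding annexin A5 (0.0304, −0.53), and Mthfd1l, which encodes an enzyme of mitochondrial folate metabolism (0.0298, −0.60). They are a description of likeness over 6 values.

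Promoters are shown for the 3 genes that were called and for Cpt1a, the gate of the pathway, because the called genes moved in different directions. The sequences are the RefSeq windows that begin 250 bases before each start site, on the GRCm38.p6 build, written 5′ to 3′ on the strand of the gene and ended before the exon annotated by GENCODE. All 10 genes matched a window. Capitals mark TGACCT, the reverse complement of AGGTCA, the hexamer that PPARs and other nuclear receptors recognize. The stretches are chr6:5496310-5496528 for Pdk4, chr4:107923611-107923839 for Cpt2 and chr4:86670061-86670309 for Plin2, all on the minus strand, and chr19:3323051-3323284 on the plus strand for Cpt1a, which lies in an intron of a longer Cpt1a transcript.
Pdk4: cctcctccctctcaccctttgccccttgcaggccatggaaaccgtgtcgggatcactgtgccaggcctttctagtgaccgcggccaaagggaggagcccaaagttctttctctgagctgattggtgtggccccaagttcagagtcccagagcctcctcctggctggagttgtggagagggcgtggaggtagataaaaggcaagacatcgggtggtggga
Cpt2: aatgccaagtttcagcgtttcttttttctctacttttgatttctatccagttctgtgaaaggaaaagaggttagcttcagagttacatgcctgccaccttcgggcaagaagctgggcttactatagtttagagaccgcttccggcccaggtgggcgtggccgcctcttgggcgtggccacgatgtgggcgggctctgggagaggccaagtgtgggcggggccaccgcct
Plin2: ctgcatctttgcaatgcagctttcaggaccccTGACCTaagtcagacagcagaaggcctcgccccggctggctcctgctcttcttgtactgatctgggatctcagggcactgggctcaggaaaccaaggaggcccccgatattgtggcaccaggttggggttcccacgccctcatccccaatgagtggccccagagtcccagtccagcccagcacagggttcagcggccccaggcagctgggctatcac
Cpt1a: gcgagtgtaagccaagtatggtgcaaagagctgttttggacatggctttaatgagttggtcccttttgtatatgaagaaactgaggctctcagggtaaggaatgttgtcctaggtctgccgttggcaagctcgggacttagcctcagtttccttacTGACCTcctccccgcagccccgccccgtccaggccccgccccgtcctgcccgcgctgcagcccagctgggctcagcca

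On both strands of the windows of 300 bases, which run to 50 bases after the start site, AGGTCA was found in 4 of the 10 genes (Cpt1a, Acadm, Acadvl and Plin2) and in 16.3% of all 32851 promoter windows. In Plin2 it lay at positions −218 to −213 and in Cpt1a at −94 to −89, with the start site counted as 0. Of the 3 called genes, only Plin2, the one that fell, held it. The element bound by PPAR and retinoid X receptor pairs is a direct repeat of this hexamer with 1 base between the copies, AGGTCANAGGTCA, which contains the hexamer by construction. Neither that repeat (0.0396% of all windows) nor its relaxed form AGGNCANAGGNCA (0.381%) was found in any of the 10 windows. The E-box CACGTG was found in Plin2 alone, at −4 to 1 across the start site, and in 7.15% of all windows. These matches describe letters in short windows and do not show binding.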

How the data were processed

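Bulk RNA-seq of 6 cultures was analysed, 3 in normal and 3 in high glucose, grouped by their labels. The authors trimmed reads with Trimmomatic, aligned them to GRCm38 (mm10) with HISAT2 and enumerated them per gene with StringTie; versions, annotation release and strand setting are not given in the sources used here. The labels name TRIzol and a DNBSeq platform, whereas the study's methods name a HiSeq system. The deposited values are whole-number counts per gene and sample, without normalization, as the authors made them.

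From these counts, genes were kept by filterByExpr (minimum count 10, minimum total count 15), normalized by TMM and compared with the quasi-likelihood test of edgeR 4.0.16 in R 4.3.3, with Benjamini-Hochberg adjustment over 19015 genes, a threshold of 0.05 and no covariate. Of 55487 identifiers, 55141 had a symbol. The biological coefficient of variation was 8.44%. Intervals are 95% confidence intervals from the fit, and CPM are TMM-normalized. The fit was tested on simulated data. Positions, exons and transcript lengths came from GENCODE vM21, near-identical transcripts (at least 300 bases and 92% identity) from blastn, and promoters from RefSeq.

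The members and gene lists were chosen with earlier results of these data known. Named were all 10 members, the 3 genes nearest to the member with the largest change, and genes whose exons overlap a member. In each of the 9 pathway lists, called genes averaging at least 1 CPM were ranked by absolute log2 fold change. The first 3 were named. A set of receptors, kinases, carriers and Cpt1 family genes, with a few more, was named whatever their values. Other genes, such as those completing a count of 5 or fewer, were named after their values had been seen. Lists are described by counts and medians, without a test. Not every list gene is reported by name here. Alternatives were other tests (likelihood ratio, DESeq2 1.42.0, robust fit), normalizations, filters and thresholds, halved counts (both reads of a pair may have been counted), summed symbols, GC content and length trends removed with mgcv 1.9.3, the replicate block, and each culture left out.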

Additional observations from a re-analysis of the deposited data

How the results depend on the processing

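Pdk4, Plin2 and Cpt2 kept their direction under all 21 alternatives, with log2 fold changes of 0.42 to 0.56, −0.66 to −0.53 and 0.17 to 0.29, and Pdk4 and Plin2 passed in each. Requiring a log2 change of at least 0.5 left 1372 genes lower and 1125 higher and 1 of the 10 genes higher, without Cpt2 (0.29). An adjusted p under 0.01 left 1671 lower and 1946 higher.

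Scaling to library size alone moved the median of all genes from 0.0062 to −0.11 and called 4884 genes lower and 1819 higher, so that 72.9% of calls were lower instead of 46.2%. Upper quartile scaling gave 56.5%. Under library size scaling, 4 of the 10 genes were lower, with Acadl at −0.14, Hadha at −0.16 and Hadhb at −0.20 (adjusted p = 0.0491, 0.0251 and 0.00929), and the signs turned for Cpt1a (−0.073), Acadm (−0.041), Hadh (−0.097), Ppard (−0.045) and Pparg (−0.071). These uncalled genes lie near 0. Upper quartile scaling turned Cpt1a (−2.3e-05) and Hadh (−0.025), no filter on low counts turned Hadh (−0.0021), and halved counts turned Hadh (−0.0011). With GC and length trends removed, Cpt1a was −0.035, Acadl 0.050 and Hadh −0.038, and with the replicate block added −0.032, 0.050 and −0.037.

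With 1 culture left out, 2048 to 3065 genes were lower and 1988 to 3149 higher, the fewest higher without replicate 3 (1988) or replicate 1 (2010) of high glucose. The ranges were −0.059 to 0.078 for Cpt1a, −0.11 to 0.0024 for Acadvl, −0.0057 to 0.021 for Hadh, −0.0091 to 0.12 for Ppard and −0.0024 to 0.069 for Pparg. Deviations of same-numbered cultures correlated at −0.025, 0.0038 and 0.013, so the numbers were not taken as pairs, and the replicate block called 2418 genes lower and 2909 higher and changed no call among the 10 genes. The cause of these shifts was not tested, apart from the change of scale itself.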
